A study of Mus musculus with 24 samples.

Results

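The 24 mouse hippocampus RNA-seq libraries of a diet study fell into 2 groups by the level of Thy1, a surface glycoprotein of neurons, whatever genotype their labels gave. A library was counted as high-Thy1 when its normalised read count for Thy1 was above 15000 and as low-Thy1 when it was below. The rule placed 11 of 24 libraries in the high group and 13 of 24 in the low group. Of the 11 high-Thy1 libraries 10 were labelled 3xTg-AD and 1 was labelled wild type (WT). Of the 13 low-Thy1 libraries 11 were labelled WT and 2 were labelled 3xTg-AD. The groups were thus chosen by measured Thy1 values, so its values and those of App are given as a description with no test, and the comparison below concerns the other genes.

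Each library came from the hippocampus of a female mouse, put on its diet at an age of 3 months and kept on it for 6 months. By label, 12 libraries were from 3xTg-AD mice and 12 from mice of the WT strain B6129SF2/J. The control diet (C) held 70% carbohydrate, 20% long-chain triglycerides and 10% protein at 4.1 kcal per g. The diet enriched in medium-chain triglycerides (MCT, M) held 70% carbohydrate, 10% long-chain and 10% medium-chain triglycerides and 10% protein at 4.1 kcal per g, and the ketogenic diet (K) held no carbohydrate, 90% long-chain triglycerides and 10% protein at 6.7 kcal per g. The high-Thy1 group had 2 libraries on the control diet (3xTg_C_1 and 3xTg_C_2), 4 on the ketogenic diet (3xTg_K_2, 3xTg_K_3, 3xTg_K_4 and 3xTg_K_5) and 5 on the MCT diet (3xTg_M_1 to 3xTg_M_4 and WT_M_2). The low-Thy1 group had 5 on the control diet (WT_C_1 to WT_C_4 and 3xTg_C_3), 5 on the ketogenic diet (WT_K_1 to WT_K_4 and 3xTg_K_1) and 3 on the MCT diet (WT_M_1, WT_M_3 and WT_M_4). Libraries are named here by their labelled genotype, diet and replicate number.

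The 3xTg-AD mouse is a single line used as a model of Alzheimer disease. It carries human transgenes for mutant amyloid precursor protein and mutant tau, driven by the Thy1 regulatory cassette, which is active mainly in neurons, together with a knocked-in mutant allele. It is bred as a homozygous line of mixed 129 and C57BL/6 ancestry, and B6129SF2/J mice are a separately bred hybrid strain and not littermates. The strains can therefore differ at many positions beside the transgenes, and in a comparison of these libraries the transgenes and the strain background cannot be told apart. In the hippocampus the main excitatory cells are the granule cells of the dentate gyrus and the pyramidal cells of CA1 to CA3. These cells respond to circulating glucocorticoids, release glutamate and depend on astrocytes for lactate, glycogen stores and cholesterol.

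Thy1 stood at 20385 to 29277 normalised read counts in the high-Thy1 libraries, with a median of 23382. In the low-Thy1 libraries it stood at 6952 to 9189, with a median of 7713. The libraries next to the threshold were 3xTg_K_4 at 20385 and 3xTg_C_3 at 9189, so no library lay near 15000. App, the mouse amyloid precursor protein gene, ran from 29473 to 37175 in the high-Thy1 libraries and from 21293 to 25302 in the low-Thy1 libraries. The ratio of group means was 3.15 for Thy1 and 1.35 for App. Neither gene overlapped between the groups. Reads of human transgenes may be counted under Thy1, App or Mapt, and how they were assigned is not given in the sources used here.

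**Figure D1:**
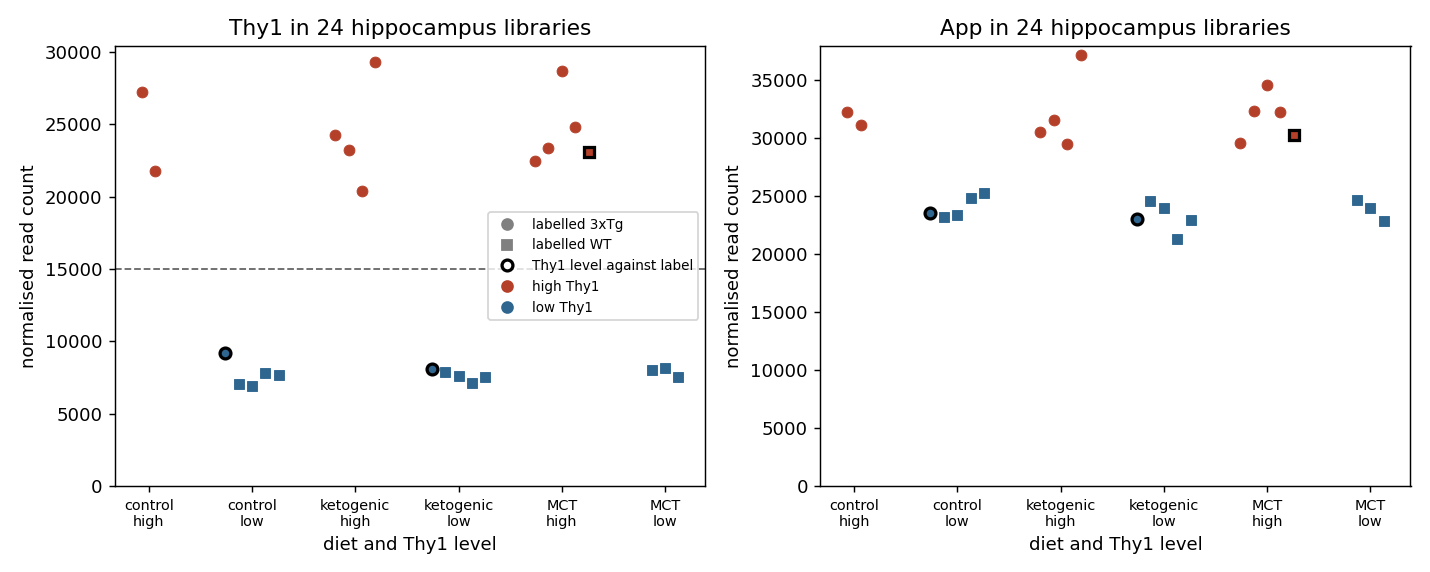
Normalised read counts of Thy1 (left) and App (right), 1 point per library, by diet and Thy1 level; circles are labelled 3xTg, squares WT, and black outlines mark the 3 libraries whose Thy1 level goes against their label. The dashed line is the threshold of 15000; the high-Thy1 libraries start at 20385 and the low-Thy1 libraries end at 9189, and the 11 high-Thy1 libraries also lie above the 13 others for App.

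Library size, as reads assigned to genes, was 2653427 in 3xTg_K_2, the shallowest, and 10078435 to 25810846 in the others. Among 23 libraries, WT_M_4 being left out of this check, no 2 agreed within sampling noise. The labels number the samples of a group without saying that each came from a separate animal, so p-values measure the spread between these libraries, which may be technical. In bulk tissue, fewer cells of a type and less RNA per cell cannot be told apart.

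Across the genome the Thy1 levels differed at many genes, mostly by little. With diet as a blocking term, limma on log2(value + 1) called 1961 of 14162 genes kept (13.8%) at a Benjamini-Hochberg adjusted p under 0.05, 936 of them (6.61%) higher and 1025 (7.24%) lower in the high-Thy1 libraries. The median absolute log2 difference of the called genes was 0.25, and 79.8% were under 0.5. A difference of 1 or more on the log2 scale was reached by 138 called genes. The 11 high-Thy1 libraries all lay above the 13 low-Thy1 libraries for 71 genes (0.501%) and all below them for 70 (0.494%), together 0.996%, Thy1 and App included. Of the 1961 called genes, 1929 (98.4%) had the same sign within each of the 3 diets. The calls were made on these same libraries pooled, which favours such agreement, so it is no separate evidence. Within a diet fewer genes were called, and 127 were called in all 3 with the same sign. On the control diet 244 were called (1.72%), 0.833% of the genes tested higher and 0.89% lower. On the ketogenic diet 560 were called (3.95%), 1.87% higher and 2.08% lower, and on the MCT diet 280 (1.98%), 1.07% higher and 0.904% lower.

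Sorting the libraries by their genotype label in place of Thy1 called 1254 genes, of which 957 were also called by Thy1 level with the same sign. Leaving out the 3 libraries whose Thy1 level went against the label (3xTg_C_3, 3xTg_K_1 and WT_M_2) left 21 in which Thy1 level and label name the same groups. There 1973 of 14126 genes were called (14.0%), 936 higher (6.63%) and 1037 lower (7.34%), and 1724 were shared with the fit of all 24 libraries with the same sign.

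The 3 libraries left out of that fit took no part in its calls, so their values are independent of the calls. Thy1 and App were not used here. Among the other genes called there, 57 had a mean of at least 32 normalised read counts and a log2 difference of at least 1. That mean was taken over all 24 libraries, the 3 included, so the choice of the 57 was not fully independent of them. WT_M_2 lay nearer to the high-Thy1 mean at 57 of 57 of these genes. 3xTg_K_1 lay nearer to the low-Thy1 mean at 55 of 57, the exceptions being Blnk and Pcdhga4. 3xTg_C_3 lay nearer to the low-Thy1 mean at 48 of 57. The 9 genes at which 3xTg_C_3 lay nearer to the high-Thy1 libraries were Zgrf1, Fam241a, Etnppl, Rpl34, Hbb-bt, Zfp457, Gm10037, Rpl3 and Rtp1, named after their values were seen. Zgrf1 (start 127553489), Fam241a (start 127869058), Etnppl (start 130617448) and Rpl34 (start 130726831) lie close together on chromosome 3 of GRCm38, and Zfp457 and Gm10037 are neighbours on chromosome 13.

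Over all 1971 genes called in the 21 libraries, Thy1 and App left out, the division was less sharp. WT_M_2 was nearer to the high-Thy1 mean at 79.0% of them, 3xTg_C_3 nearer to the low-Thy1 mean at 66.1% and 3xTg_K_1 at 56.5%. On the larger differences each of the 3 libraries thus sat mainly with the group of its Thy1 level.

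**Figure D2:**
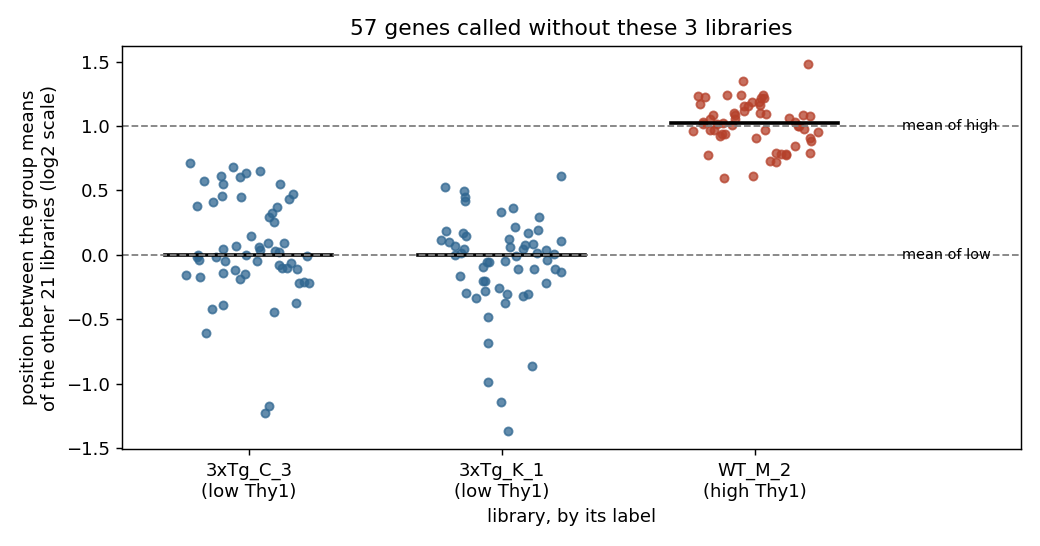
Position of the 3 libraries whose Thy1 level goes against their label, between the low-Thy1 mean (0) and the high-Thy1 mean (1) of the other 21 libraries on the log2(value + 1) scale; each point is 1 of 57 genes and the black line is the median. WT_M_2 lies nearer to 1 at all 57 genes, from 0.60 to 1.48, while 48 of 57 genes in 3xTg_C_3 and 55 of 57 in 3xTg_K_1 lie nearer to 0.

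The genes that stood highest above the low-Thy1 level had varied functions. Stbd1, which tethers glycogen to membranes, had 124, 185 and 239 normalised read counts as lowest, median and highest of the 11 high-Thy1 libraries. It had 17.8, 22.96 and 93.9 in the 13 low-Thy1 libraries. All high-Thy1 libraries lay above all low-Thy1 libraries, although WT_C_2 (93.9) and WT_M_1 (92.0) stood well above the rest of their group. The log2 difference of Stbd1 was 2.65 ± 0.23 (SE; n = 11 and 13; limma adjusted p = 1.39e-09). It lies on chromosome 5 (chr5:92603041-92606579).

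Lgr6, a receptor for R-spondins that strengthen Wnt signalling, differed by nearly the same amount on each diet. It ran from 265 to 366 (median 287) in the high-Thy1 libraries and from 50.5 to 84.4 (median 60.9) in the low-Thy1 libraries, and the groups were far apart. Its log2 difference was 2.12 ± 0.08, with 2.12 on the control diet, 2.13 on the ketogenic diet and 2.12 on the MCT diet. Lgr6 lies at chr1:134983301-135105276.

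Spink8, a protease inhibitor known as a marker of CA1 pyramidal cells, ran from 232 to 458 (median 392) against 96.7 to 189 (median 129). The groups did not overlap, and the log2 difference was 1.40 ± 0.11. Cd59a, which blocks the membrane attack complex of complement, ran from 91.8 to 153 against 10.3 to 78.9 and rose by 1.57 ± 0.23 on the log2 scale. Capza1, a subunit that caps actin filaments, ran from 142 to 185 against 38.3 to 97.7 (log2 difference 1.5), and Fut10, a fucosyltransferase family gene, from 133 to 238 against 48.5 to 127 (log2 difference 1.30). None of these 4 genes overlapped between the groups.

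Other higher genes overlapped or varied within the low-Thy1 group. Klk1b22, a kallikrein protease, had 21.6 to 94.5 in the high-Thy1 libraries and 0.971 to 52.6 in the low-Thy1 libraries (log2 difference 2.29 ± 0.35). Bub1b, a kinase of the mitotic checkpoint, had 47.1 to 108 against 1.40 to 50.1 (log2 difference 1.97 ± 0.37). Zfp457 had 32.4 to 67.1 against 5.47 to 35.02, Etnppl, an astrocyte enzyme of phospholipid breakdown, 295 to 532 against 83.7 to 314, Hcar1, the lactate receptor, 34.6 to 75.6 against 4.21 to 62.1, and Cthrc1, a secreted collagen-related protein, 48.7 to 94.5 against 5.60 to 66.8. The high-Thy1 medians of these genes all lay above the highest value of the low-Thy1 group except for Hcar1 and Cthrc1, where 1 or more low-Thy1 libraries reached the high-Thy1 range above its median.

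A pair of ribosomal protein genes was among the 15 highest. Rpl34 had 317 to 483 (median 386) against 43.9 to 222 (median 65.2), and Rpl3 had 477 to 614 (median 549) against 48.2 to 336 (median 277). The low-Thy1 libraries themselves were widely spread at both genes, yet none reached the high-Thy1 libraries. The log2 differences were 2.27 ± 0.21 and 1.95 ± 0.33. Many processed copies of ribosomal protein genes exist, and reads can be split between them in ways the counting decides, so both values are uncertain.

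The genes lowest in the high-Thy1 libraries included 2 chemokines and 2 neighbouring protease inhibitors. Serpina3n, a secreted inhibitor of serine proteases that marks reactive astrocytes, had 746, 860 and 1233 normalised read counts as lowest, median and highest of the high-Thy1 libraries. In the low-Thy1 libraries it had 1821, 3605 and 3889. The groups were clearly apart, and the log2 difference was -1.89 ± 0.12 (limma adjusted p = 1.57e-12). Serpina3m, next to it on chromosome 12, had 0 to 3.53 against 30.8 to 102, a log2 difference of -5.17 ± 0.26 that depends on the pseudocount (-3.61 with a pseudocount of 5). The Serpina3 genes are close copies (Serpina3n at chr12:104406729-104414329, Serpina3m at chr12:104338486-104394257), and reads may have been split between them.

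Ccl28, a chemokine of mucosal tissues, had 0.930 to 7.06 in the high-Thy1 libraries against 19.7 to 103 in the low-Thy1 libraries. Ccl27a, a skin chemokine with near-identical gene copies on chromosome 4, had 9.93 to 43.2 against 213 to 287. Both were low in every high-Thy1 library, with log2 differences of -3.37 ± 0.25 and -3.12 ± 0.16. Tuba1c, an alpha-tubulin with close paralogs, had 1.59 to 21.6 against 8.24 to 327, and the single low-Thy1 library in the high-Thy1 range was WT_K_1, since the next lowest stood at 136. Its log2 difference was -4.43 ± 0.45.

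Mcm6, a subunit of the helicase that opens DNA for replication, had 39.1 to 71.8 (median 45.2) against 188 to 317 (median 226). Its groups were far apart and its log2 difference was -2.24 ± 0.09. Col6a5, a collagen chain, had 9.92 to 21.6 against 44.2 to 82.6, Pyroxd2, a mitochondrial oxidoreductase, 11.7 to 21.6 against 35.03 to 81.0, and Ddx4, a germ cell RNA helicase, 5.40 to 27.6 against 42.7 to 80.4. Each of these 3 genes was lower in all 11 high-Thy1 libraries than in any low-Thy1 library.

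Pttg1, the securin of mitosis, overlapped between the groups. It stood at 4.65 in 3xTg_M_4 and 7.72 in 3xTg_C_1, far under the high-Thy1 median of 148, while the low-Thy1 libraries held 170 to 364. The log2 difference of -1.62 ± 0.48 (limma adjusted p = 0.0211) lost its call without 3xTg_C_1.

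Related genes moved in opposite directions at 2 places. Tagap, a GTPase-activating protein of T cells, had 8.24 to 37.8 against 40.1 to 114 (log2 difference -2.42 ± 0.21), while its close copy Tagap1, nearby on chromosome 17, had 205 to 260 against 72.0 to 177 (log2 difference 1.19 ± 0.13). In the gamma-protocadherin cluster of chromosome 18, whose members are adhesion proteins that give neurons surface identities and share their last exons, Pcdhga11 had 37.5 to 84.6 against 292 to 403 and Pcdhgb6 44.7 to 78.0 against 134 to 198. Pcdhga4 of the same cluster was higher, with a log2 difference of 0.99. Members of both families share sequence, so reads may have been divided between copies.

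**Figure D3:**
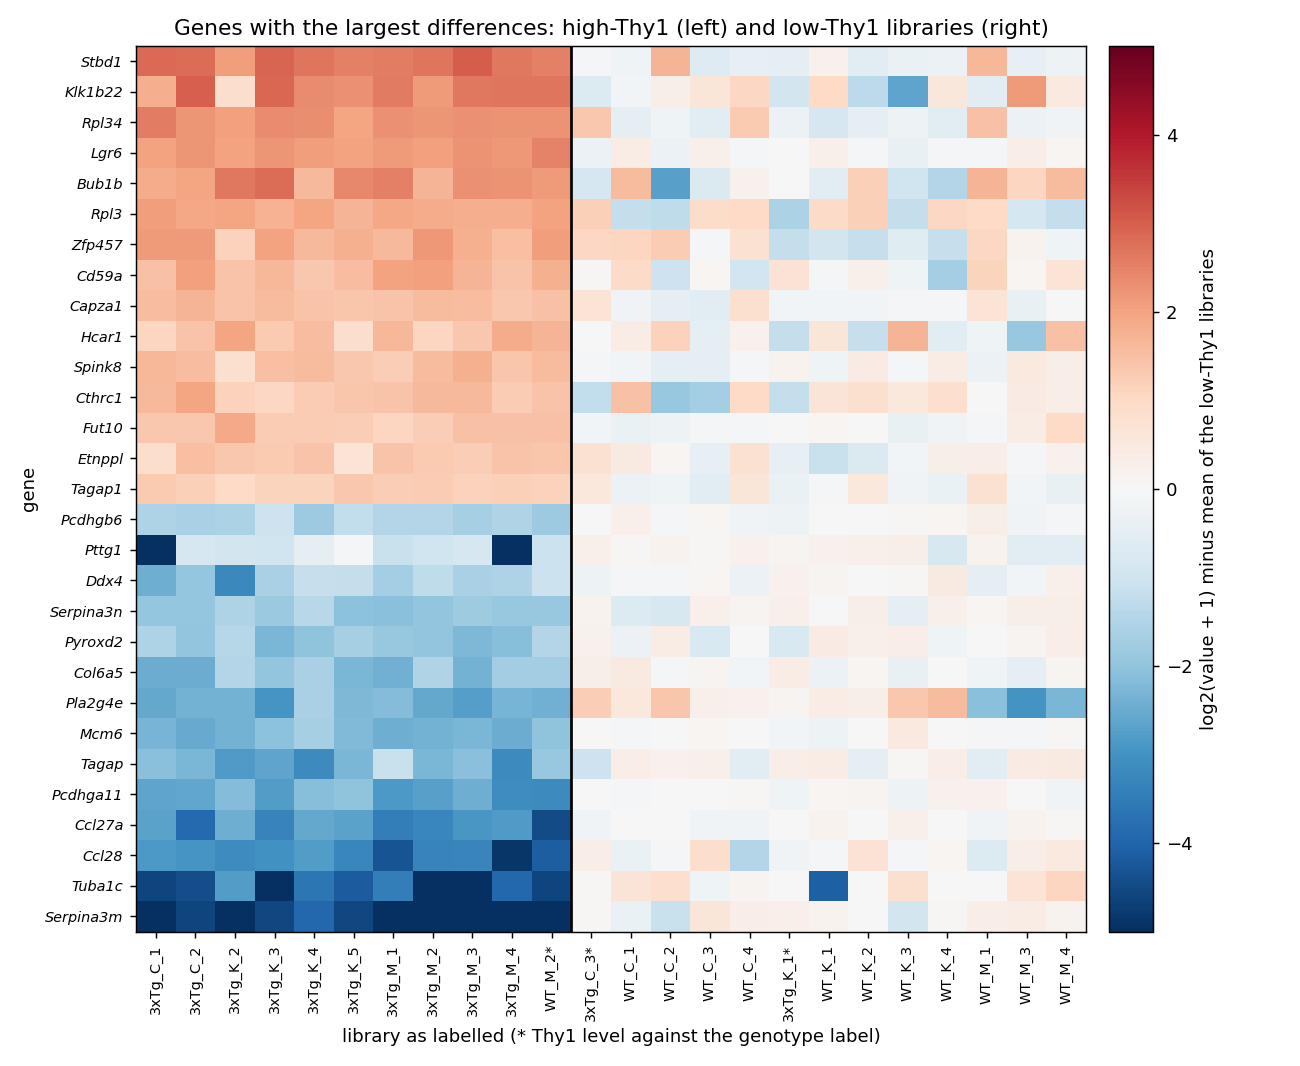
Heat map of genes with the largest log2 differences (rows; higher genes and lower genes) in the 24 libraries (columns; high-Thy1 left of the black line), coloured by log2(value + 1) minus the mean of the low-Thy1 libraries. WT_M_2, labelled WT, shares the colours of the high-Thy1 libraries, and 3xTg_C_3 and 3xTg_K_1 mostly those of the low-Thy1 libraries. At Rpl3, Rpl34, Etnppl and Zfp457, 3xTg_C_3 lies nearer to the high-Thy1 mean. Pla2g4e is as low in WT_M_1, WT_M_3 and WT_M_4 as in the high-Thy1 libraries.

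Genes induced by glucocorticoids had the largest share of called members of the 35 gene lists described. Of the 15 members, 12 were called higher and 0 lower, and the median log2 difference was 0.67 against -0.0002 over all genes tested. Every member had a positive difference. The count was 12 in the 21 libraries, 12 without 3xTg_K_2, 11 to 12 when any library was left out and 10 by genotype label. The list was picked with earlier results of these data known.

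Glucocorticoids enter cells and bind the glucocorticoid receptor, which then binds a palindromic DNA element near its target genes. The promoters of Txnip and Sgk1 are shown because they are the members of the list whose promoter window held that palindrome, searched on both strands as GNACA and TGTNC with any 3 bases between them. The windows run from 250 bases before to 50 bases after each RefSeq gene start on GRCm38.p6. The match is in capitals, 5′ to 3′ on the gene's strand.
Txnip, chr3:96557707-96558006, plus strand: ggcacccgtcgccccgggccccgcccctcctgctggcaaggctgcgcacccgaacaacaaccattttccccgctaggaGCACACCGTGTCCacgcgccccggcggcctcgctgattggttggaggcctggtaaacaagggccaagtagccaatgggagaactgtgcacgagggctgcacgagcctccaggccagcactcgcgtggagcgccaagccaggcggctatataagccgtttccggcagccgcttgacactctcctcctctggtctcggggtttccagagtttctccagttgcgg
Sgk1, chr10:21993640-21993939, plus strand, 1 of 6 windows of the gene: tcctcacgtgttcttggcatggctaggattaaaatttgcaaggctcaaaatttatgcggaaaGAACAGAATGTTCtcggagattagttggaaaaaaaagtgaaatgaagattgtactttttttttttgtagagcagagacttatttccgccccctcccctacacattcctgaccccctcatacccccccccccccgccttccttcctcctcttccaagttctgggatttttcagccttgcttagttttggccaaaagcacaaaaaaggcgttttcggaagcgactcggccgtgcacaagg
The 14 members with a window had 24 windows in all, of which these 2 held a match, and 0.475% of all 32851 windows did. A match is a run of letters and not a shown binding site.

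Ddit4, an inhibitor of mTOR signalling, had 713, 761 and 951 normalised read counts as lowest, median and highest of the high-Thy1 libraries and 449, 510 and 639 in the low-Thy1 libraries. It was the member whose groups did not overlap, and its log2 difference was 0.57 ± 0.06 (limma adjusted p = 1.28e-07). Sgk1, a kinase that acts on ion channels, had 2072, 2621 and 3283 against 1006, 1427 and 2505. Its groups overlapped, with 7 of 11 high-Thy1 libraries above every low-Thy1 library, and its log2 difference was 0.73 ± 0.14. Tsc22d3, which encodes the anti-inflammatory protein GILZ, had 1376 to 2447 against 774 to 1731 (0.67 ± 0.13), and Txnip, a brake on glucose uptake, 476 to 732 against 324 to 516 (0.53 ± 0.08).

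The largest differences in the list were 1.08 for Hif3a, a hypoxia-inducible factor subunit, 0.98 for Cdkn1a, the p21 cell cycle inhibitor, 0.92 for Plin4, a lipid droplet coat protein, and 0.84 for Pdk4, which restrains the entry of pyruvate into mitochondria. Fkbp5, a co-chaperone of the receptor, rose by 0.37, Nfkbia, the inhibitor of NF-kappaB, by 0.69, Arrdc2 by 0.72 and Errfi1, a feedback inhibitor of EGF receptors, by 0.25. Zbtb16 (0.18), Per1 (0.05) and Klf9 (0.03) did not pass the test. Klf9 was -0.009 within the ketogenic diet. The 12 called members had positive differences within each diet.

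The summed level of the list overlapped between the groups. It ran from 14960 to 20510 in the high-Thy1 libraries, and 4 low-Thy1 libraries lay within that range, WT_C_1 (17340), WT_K_4 (15228), WT_M_4 (15202) and WT_M_3 (15037). WT_C_1 was the highest low-Thy1 library at 9 of the 15 members. WT_C_1 also held the most of the choroid plexus transcript Ttr (11390 against 10.6 to 171 in the high-Thy1 libraries). Without WT_C_1 the count of called members stayed at 12. The libraries set apart by label followed their Thy1 level in part, with summed levels of 17418 in WT_M_2, 12692 in 3xTg_C_3 and 14832 in 3xTg_K_1.

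**Figure D4:**
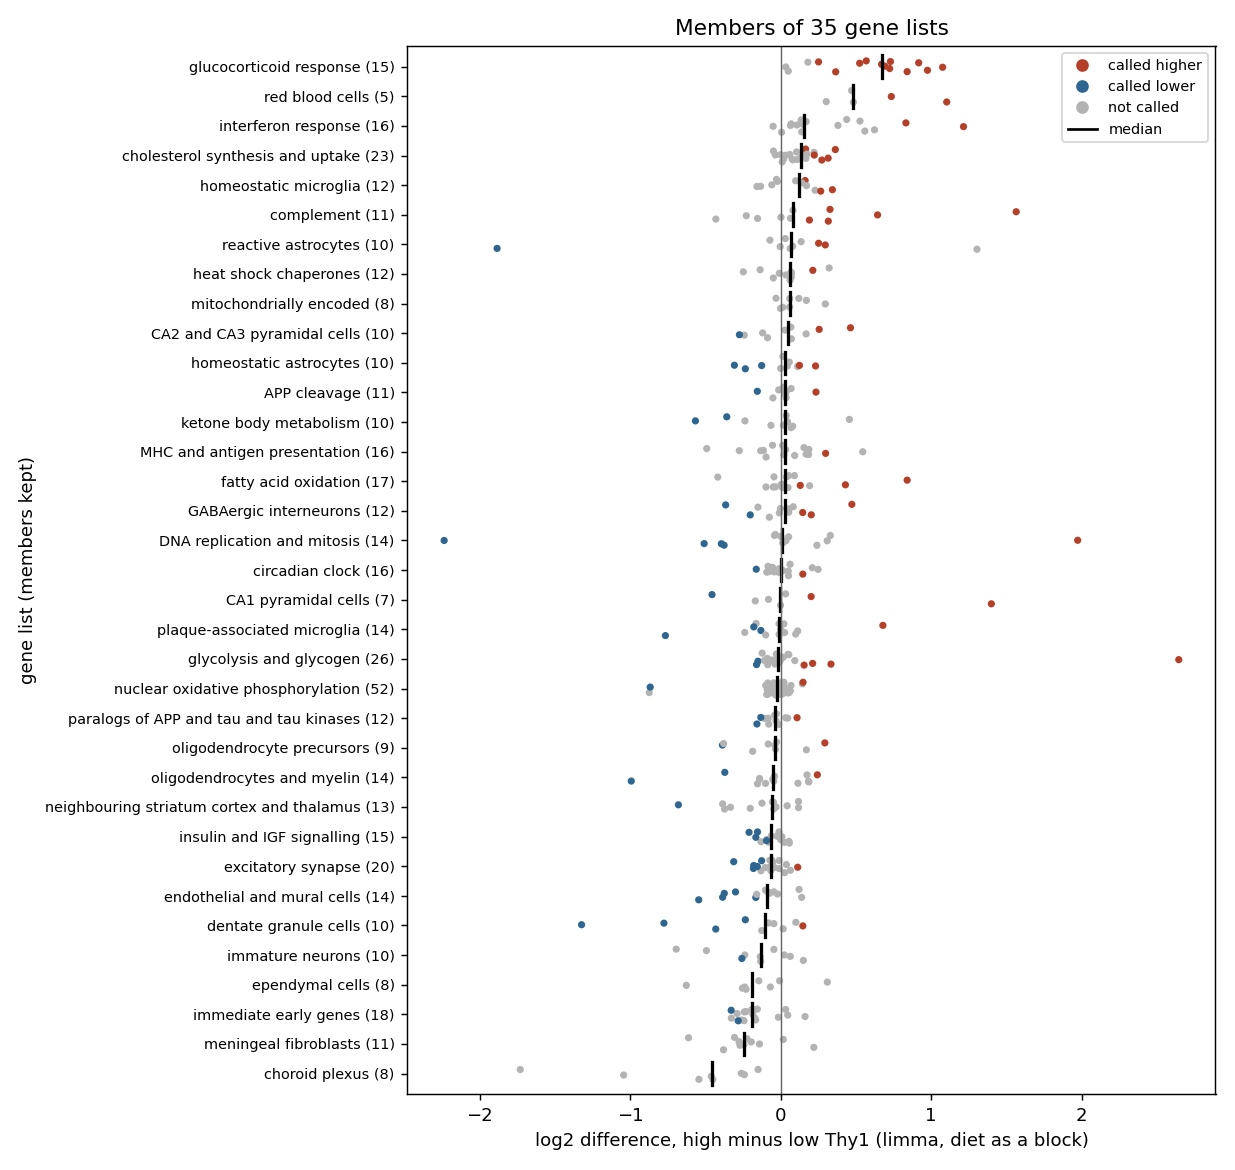
Log2 difference, high minus low Thy1, of each member of the 35 gene lists (points; red called higher, blue called lower, grey not called) with the list's median (black bar) and the number of members kept in parentheses. The glucocorticoid list sits to the right with 12 of 15 members called higher, the 8 choroid plexus members sit left of 0 with none called, and most other medians lie near 0.

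Genes of cholesterol synthesis and uptake, which in the adult brain are read mostly from astrocytes and oligodendrocytes, were called higher at 6 of 23 members and lower at 0. That share was 26.1%, against 13.8% over all genes. The list's median log2 difference was 0.13, and 20 of 23 members were positive. Hmgcs1, an early enzyme of the pathway, had 4824, 5094 and 5601 normalised read counts against 3539, 4002 and 4988 (lowest, median, highest). The overlap was slight, and the log2 difference was 0.36 ± 0.05 (limma adjusted p = 4.95e-06). Cyp51 (0.32), Fdft1 (0.27), Nsdhl (0.22), Msmo1 (0.17) and Sc5d (0.16), all enzymes of later steps, were the other called members. Sterol-responsive genes are switched on by SREBP factors, and the letters CACCCCAC of a known sterol element stood in 2 of the 19 promoter windows of the 16 members that have one, those of Hmgcs1 and Acat2, and in 2.87% of all windows on either strand. The window of Hmgcs1 is shown because this gene had the smallest p of the list.
Hmgcs1, chr13:119690101-119690400, plus strand, RefSeq GRCm38.p6, match in capitals: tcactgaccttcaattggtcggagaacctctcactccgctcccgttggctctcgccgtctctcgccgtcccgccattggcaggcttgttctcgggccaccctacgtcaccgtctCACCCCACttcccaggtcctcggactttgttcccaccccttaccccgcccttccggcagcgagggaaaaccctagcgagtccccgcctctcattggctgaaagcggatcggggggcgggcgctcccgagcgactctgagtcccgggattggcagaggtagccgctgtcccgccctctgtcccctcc
Acat2 itself was not called (log2 difference 0.11, adjusted p = 0.172).

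The genes of amyloid and tau biology moved little. Mapt, which encodes tau, had 7221, 7701 and 8217 against 6445, 7183 and 7764 (lowest, median, highest). The groups overlapped, and the log2 difference of 0.11 ± 0.03 (limma adjusted p = 0.0281) missed the threshold in the 21 libraries (adjusted p = 0.0646). Among genes of APP cleavage, Aph1b, a gamma-secretase subunit, rose by 0.23 ± 0.04, while the beta-secretase Bace1 (0.02) and the alpha-secretase Adam10 (0.03) did not pass the test. Of 12 paralogs of APP and tau and tau kinases, Mapt was higher and 2 were lower, Mark2 (-0.13), which phosphorylates tau, and Map1a (-0.16), a microtubule-associated protein. Aplp1 (0.05), Aplp2 (-0.04), Map2 (-0.03) and Cdk5 (0.03) did not pass.

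Markers of dentate granule cells were called at 5 of 10 members, 4 lower and 1 higher, with a median log2 difference of -0.10. C1ql2, a secreted synapse organiser of granule cell axons, had 208, 280 and 358 normalised read counts against 605, 695 and 857. Its groups were well apart, and the log2 difference was -1.32 ± 0.08 (limma adjusted p = 2.07e-12). Lct, the lactase gene, had 360 to 654 against 511 to 1068 (-0.78 ± 0.10), Plk5 was lower by 0.43 and Prox1, the transcription factor of granule cell identity, had 1673 to 2263 against 1805 to 2738 (-0.23 ± 0.07). Calb1, the calcium buffer calbindin, was higher (0.15), a call not made in the 21 libraries (adjusted p = 0.0661). The markers thus did not move as 1 block.

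Pyramidal cell markers were also divided. In CA1, Spink8 was higher, Wfs1, an endoplasmic reticulum protein, had 1072 to 1672 against 1466 to 2451 (-0.46 ± 0.07) and Gpr161 was higher by 0.20. In CA2 and CA3, Cpne4 (-0.27) was lower, and Amigo2 (0.26) and Map3k15 (0.46; adjusted p = 0.106 in the 21 libraries) were higher. Among immature neuron genes 1 of 10 was called, Sox4, a transcription factor of young neurons, at -0.26. This share of 10.0% lies under the 13.8% over all genes.

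Excitatory synapse genes were called lower at 5 of 20 members and higher at 1, together 30.0% against 13.8% over all genes. Shank3, a scaffold of the postsynaptic density, had 1819 to 2781 against 2369 to 3331 and fell by 0.31 ± 0.06. Camk2b (-0.16), Camk2a (-0.18) and Nrgn (-0.18), all parts of calcium signalling behind NMDA receptors, were lower, while the AMPA receptor subunit Gria2 was higher by 0.11. The count of lower members ran from 3 to 6 without single libraries. Of 18 immediate early genes 2 were called, Bdnf (-0.33), a neurotrophin, and Nr4a2 (-0.28), both lower, a share of 11.1% against 13.8% over all genes. The count ran from 2 to 5 without single libraries and was 5 in edgeR. Among 12 interneuron genes, the peptide gene Vip rose by 0.47 ± 0.06 and Npy fell by 0.37 ± 0.09, Cnr1 (0.15) and Dlx1 (0.20) were higher and Reln (-0.20) was lower.

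Of 11 complement genes kept, 5 were called higher (45.5% against 13.8% over all genes) and 0 lower. C4b, the central component of the classical pathway, had 520, 726 and 846 against 369, 440 and 678 (lowest, median, highest), with a log2 difference of 0.64 ± 0.09, and C1qa (0.32), C1qb (0.33) and C1qc (0.19), the chains of its starter complex, were higher, as was Cd59a. Among 12 homeostatic microglia genes, Tmem119 (0.34), Selplg (0.27) and the growth factor receptor Csf1r (0.16) were higher. Of 14 plaque-associated microglia genes kept, 28.6% were called. Spp1 was higher (0.68), and Gpnmb (-0.77), Axl (-0.13) and Csf1 (-0.18) were lower. Trem2, Apoe and Clec7a of the list were not called, and Cst7 and Itgax did not pass the filter on low values.

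Among 10 reactive astrocyte genes kept, Gfap, the intermediate filament of astrocytes, had 4944 to 6093 against 3823 to 5961 and rose by 0.25 ± 0.05, and Osmr, a cytokine receptor, rose by 0.30. Serpina3n of the same list fell, as given above. Homeostatic astrocyte genes were mixed, with Slc1a3 (0.13) and Gjb6 (0.23) higher and Kcnj10 (-0.23), Sox9 (-0.31) and Slc4a4 (-0.13) lower. Oligodendrocyte genes were mixed as well, with Opalin (-0.99) and Aspa (-0.37) lower among the mature cell genes, and with Sox10 (-0.39) lower and Neu4 (0.29) higher among the precursor genes. The interferon response list had 2 of 16 members higher, Usp18 (1.22) and Oasl2 (0.83), a share of 12.5% that lies near the 13.8% over all genes, and the count ran from 1 to 4 without single libraries. Usp18 was highest in 3xTg_K_2 (54.0) and 3xTg_M_1 (37.8). Oasl2 was -0.26 within the control diet and missed the threshold in the 21 libraries (adjusted p = 0.0524), and by genotype label 0 members of the list were called.

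Some vessel markers were lower. Of 14 endothelial and mural genes, 5 were called lower (35.7% against 13.8% over all genes) and 0 higher. They included the VEGF receptors Kdr (-0.54) and Flt1 (-0.17), the angiopoietin receptor Tek (-0.39) and the junction proteins Cdh5 (-0.30) and Cldn5 (-0.37). Kdr had 130 to 239 against 188 to 362, and the groups overlapped at each of these genes. The count fell to 2 without 3xTg_K_2, and edgeR called 3. Cdh5 and Flt1 each lost the call without any of several single libraries. Of the 5 red blood cell genes, Hbb-bt (1.10) and Hba-a2 (0.74) were higher, 40.0% of the list. The count ran from 1 to 3 without single libraries and was 0 by genotype label. The summed level of the 5 genes ran from 367 to 814 in the high-Thy1 libraries and from 131 to 569 in the low-Thy1 libraries.

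Choroid plexus markers differed between libraries without a call. The 8 choroid plexus genes kept had a median log2 difference of -0.46, all 8 negative, and limma called 0 of them at the adjusted threshold. At an unadjusted p under 0.05 there were 3, and edgeR also called 0. The summed level of the list ran from 2559 to 3733 in the high-Thy1 libraries and from 2821 to 23449 in the low-Thy1 libraries, WT_C_1 and WT_K_1 being the highest. Ttr stood at 11390 in WT_C_1 and 3921 in WT_K_1. For meningeal fibroblasts 0 of 11 and for ependymal cells 0 of 8 genes were called, with 1 in each list at an unadjusted p under 0.05. Among 13 markers of neighbouring striatum, cortex and thalamus, Rgs9 (-0.68) was called lower, a share of 7.7% against 13.8% over all genes. The part of carried-over tissue in the differences above was not tested.

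Genes of fuel use changed at single members rather than as lists. Slc16a1, the lactate and ketone body carrier MCT1, had 556, 714 and 984 against 936, 1077 and 1359 (lowest, median, highest), with few libraries in the overlap. Its log2 difference was -0.57 ± 0.07 (limma adjusted p = 1.03e-06), negative within each diet. Of the 10 ketone body genes 2 were called (20.0% against 13.8% over all genes), Slc16a1 among them, and both were lower. In fatty acid oxidation 3 of 17 were higher, 17.6% against 13.8% over all genes, and 1 in the 21 libraries. They were Pdk4, Ppara (0.43), a receptor that switches such genes on, and Acadl (0.13). Ppara and Acadl missed the threshold in the 21 libraries (limma adjusted p = 0.0676 and 0.0509).

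In glycolysis and glycogen 6 of 26 members were called, 23.1% against 13.8% over all genes. Stbd1, Ppp1r3c (0.21), a glycogen targeting subunit, Gyg (0.16), the primer of glycogen, and the glucose carrier Slc2a1 (0.33) were higher. Pfkl (-0.15) and Pygb (-0.16), the brain form of glycogen phosphorylase, were lower. Of 15 insulin and IGF signalling genes 4 were lower (26.7%), Irs1 (-0.21), Foxo3 (-0.17), Igf1r (-0.15) and Gsk3b (-0.09). The count ran from 1 to 4 without single libraries and was 2 in edgeR, Gsk3b and Igf1r losing the call without most of the libraries in turn. Of 52 nuclear genes of oxidative phosphorylation 2 were called, Cox7c (-0.87) and Cox6c (0.15), under the share over all genes, and limma called 0 of 8 mitochondrially encoded genes. Of these 8, 3 were higher at an unadjusted p under 0.05, and edgeR called 2 higher.

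Beside Mcm6 and Bub1b, the DNA replication and mitosis list held Mcm3 (-0.51), Pcna (-0.38) and Ccna2 (-0.39) among the called members. Thus 4 of 14 were lower and 1 higher, together 35.7% against 13.8% over all genes. The circadian list had Clock (0.15) higher and Bhlhe41 (-0.16) lower of 16, a share of 12.5% that lies near the 13.8% over all genes. Bhlhe41 lost its call when any of several single libraries was left out. In the fit of 21 libraries 2 members of the list were called higher and 0 lower. Among 12 heat shock chaperones 1 was called, Hspa5 (0.21), the endoplasmic reticulum chaperone BiP, which was higher. Hspa5 lost its call when any of several single libraries was left out, and the list's count ran from 0 to 2. Among 16 genes of antigen presentation 1 was called, B2m (0.30), which was higher. These shares, 8.3% and 6.25%, lie under the 13.8% over all genes.

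Position in the genome was not used to choose the groups. Genes were placed on GRCm38 by their symbol in GENCODE M21. Leaving out the mitochondrial genome, where 0 of 8 genes were called by limma, the share of kept genes called by chromosome ran from 8.3% on chromosome 12 and 8.6% on X to 20.3% on chromosome 14 and 21.1% on chromosome 13. In 222 windows of 10 Mb with at least 20 kept genes the median share was 12.9%. The window of chromosome 13 from 60 to 70 Mb had the largest share, 28 of 59 genes (47.5%), and holds many zinc finger genes. Of these, Zfp429 had 0 to 7.27 against 15.8 to 52.8 (log2 difference -3.57) and Zfp874a 170 to 226 against 253 to 447 (-0.81), while Zfp367 was higher (0.42).

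The window with the most called genes was chromosome 9 from 100 to 110 Mb, with 36 of 130 (27.7%), where Tma7 (0.96) and Spink8 were higher and Col6a5 lower, each without overlap. On chromosome 19 from 40 to 50 Mb 30 of 103 genes were called (29.1%), among them Pyroxd2, Blnk (-0.95) and Entpd1 (0.34). On chromosome 18 from 30 to 40 Mb 33 of 137 were called (24.1%), the protocadherins and Sap130 (0.59) included. Around Thy1 the share was no higher than elsewhere, with 9 of 73 genes within 5 Mb (12.3%). It was 20 of 149 around Mapt (13.4%) and 4 of 17 around App (23.5%).

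The difference between Thy1 levels depended on diet at 1 of 14162 genes (0.00706%), Pla2g4e, which encodes a calcium-dependent phospholipase that makes N-acyl phospholipids. In the high-Thy1 libraries Pla2g4e had 28.7 and 32.7 normalised read counts on the control diet, 21.4 to 55.3 on the ketogenic diet and 24.6 to 37.8 on the MCT diet. In the low-Thy1 libraries it had 200 to 451 (median 250) on the control diet and 187 to 510 (median 222) on the ketogenic diet, but 39.4 in WT_M_1, 21.04 in WT_M_3 and 34.2 in WT_M_4. The 3 low-Thy1 libraries on the MCT diet were therefore as low as the high-Thy1 libraries, and the other 10 stood apart from them.

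The log2 difference of Pla2g4e was -3.18 ± 0.37 on the control diet, -3.04 ± 0.29 on the ketogenic diet and 0.02 ± 0.32 on the MCT diet (limma interaction adjusted p = 0.00209). It kept an adjusted p under 0.05 without any single library (0.000816 to 0.0382). In edgeR no gene was called, with Pla2g4e holding the smallest p (unadjusted 0.000101) among 500 genes at an unadjusted p under 0.05, while DESeq2 called 1 gene, Pla2g4e. Sorted by genotype label, the limma interaction of Pla2g4e had an adjusted p of 0.998. Pla2g4e lies at chr2:120166412-120245335.

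At Eif3j2 the low-Thy1 MCT libraries stood apart in the same way, without a call for interaction. They also stood apart from the other low-Thy1 libraries at Eif3j1 and Fam227b, in other patterns and again without a call. Eif3j2, a translation factor gene of chromosome 18 (chr18:43475418-43477796) with a close copy, Eif3j1, on chromosome 2, had 0 to 11.8 in the high-Thy1 libraries, 36.7 to 101 in the low-Thy1 libraries of the control and ketogenic diets, and 1.64 to 2.10 in WT_M_1, WT_M_3 and WT_M_4 (interaction adjusted p = 0.0807). Eif3j1, named after its values were seen, had 127 to 179 in the high-Thy1 libraries, 13.8 to 100 in the low-Thy1 libraries of those 2 diets and 145 to 169 in the same 3 libraries, the opposite order. Reads of the 2 copies may have been shared between them.

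Fam227b, about which little is known, lies at chr2:125983483-126152004. It had 10.8 to 30.6 in the high-Thy1 libraries, 11.0 to 29.6 in the low-Thy1 libraries of the control and ketogenic diets and 2.01 to 4.11 in the 3 low-Thy1 MCT libraries (interaction adjusted p = 0.236), which were lower than every other library. Bub1b, also on chromosome 2 (chr2:118598211-118641591), stood at 31.6 to 50.1 in these 3 libraries and at 1.40 to 46.4 in the other low-Thy1 libraries, so these ranges overlapped. Of the 97 genes within 5 Mb of Pla2g4e, 17 were called between Thy1 levels (17.5%). The labels give no litter or breeding cohort, so for these 3 libraries cohort and diet cannot be told apart.

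**Figure D5:**
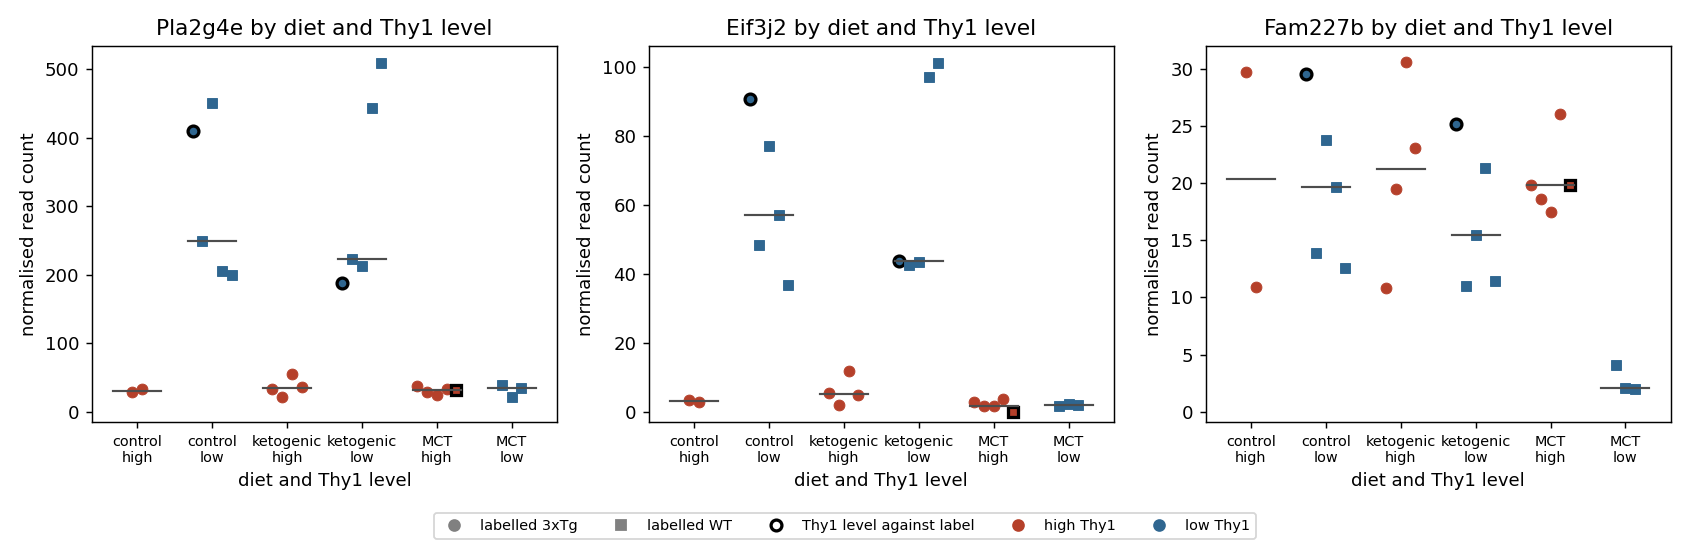
Normalised read counts of Pla2g4e, Eif3j2 and Fam227b by diet and Thy1 level, 1 point per library with the group median as a line; markers as in the plot of Thy1 and App. In the low-Thy1 MCT libraries (21.04 to 39.4, 1.64 to 2.10 and 2.01 to 4.11) all 3 genes lie under the low-Thy1 libraries of the control and ketogenic diets.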

How the data were processed

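Poly(A) RNA libraries were trimmed with Trimmomatic and aligned with STAR to GRCm38, per the submitters' processing notes; which gene counter was used, and with what settings, is not given in the sources used here. A table that the authors deposited held, for 21793 genes in 24 libraries, normalised read counts (signal, not raw counts). In all 24 columns 100.0% of values were whole multiples of 1 step within 0.01 reads. Reads were taken as recovered in 23 columns; WT_M_4, whose step is close to 1, was left out of the count tests only. The members and gene lists were chosen with earlier results of these data known, and the 15 glucocorticoid genes were added to the named genes after their values were seen.

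Genes reaching a value of 10 in 3 libraries or more entered the test, made with limma 3.58.1 (R 4.3.3) on log2(value + 1), with Thy1 level and diet as terms and a mean-dependent prior variance; p-values are two-sided and adjusted by Benjamini-Hochberg over all kept genes. Fold changes are on this scale and understate those of low genes. Interaction with diet was an F test over 6 diet by Thy1 level means, and within-diet values came from that fit, in which all groups share 1 spread. On simulated data the comparison recovered 74% of genes changed 1.25-fold and 98% changed 1.5-fold, with 8 false calls among 13869 unchanged genes. The interaction recovered 14%, 56% and 92% at 1.25, 1.5 and 2-fold. Changed genes were drawn only from those with a mean of at least 32. Genes were simulated independently, with no diet effect beyond the changes put in. These rates need not hold for lower genes or for libraries whose genes vary together. edgeR 4.0.16 and DESeq2 1.42.0 on recovered reads were alternatives.

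Named are the 15 called genes with the largest difference each way and a mean of at least 32, leaving out Thy1, App, predicted and date-like names, up to 4 called members per list (2 by p where none was called), Mapt, up to 3 genes in each of the 5 windows with most called genes, and the 5 smallest interaction p; further list members are given from the full lists. Some genes that this rule names are not reported here. Positions matched 21556 symbols; 27 had several and 210 none.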

Additional observations from a re-analysis of the deposited data

Results flagged for a closer look

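Single libraries standing apart from the others of their diet and Thy1 level were sought in 54 measures, by setting the gap of the highest or lowest library against the range of its group. Of 216 groups with 4 to 10 libraries, 18 held a library standing apart; chance gives about 1 in 20 groups.

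WT_C_1, a low-Thy1 library on the control diet, was high in 4 glucocorticoid-responsive genes: Tsc22d3 at 1731, Sgk1 at 2505, Nfkbia at 454 and Arrdc2 at 180 normalised read counts. Its choroid plexus transcripts were also the highest, as given in the report, and their part in these values was not tested. Cdkn1a at 166 in WT_K_4 was high and Plin4 at 350 in 3xTg_M_4 low for their groups.

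Among the genes with the largest differences, Stbd1 was high in WT_C_2 (93.9) and in WT_K_1 (32.9), Tagap1 in WT_K_2 (148), Fut10 in 3xTg_K_2 (238), Ccl28 in WT_K_2 (91.8) and Fam227b in 3xTg_M_4 (26.0). Low for their groups were Klk1b22 in 3xTg_M_2 (52.5), Cthrc1 in 3xTg_K_1 (9.85), Pttg1 in WT_K_4 (170) and in 3xTg_M_4 (4.65), and Serpina3m in WT_K_3 (34.9). WT_C_2 had the fewest reads of its group, 10.1 M.

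The Thy1 difference of Pla2g4e depended on diet (limma interaction adjusted p = 0.00209), with log2 differences of -3.18, -3.04 and 0.02 on the control, ketogenic and MCT diets.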

How the results depend on the processing

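The count of 1961 called genes ran from 1576 to 2536 over pseudocounts of 0.5 and 5, other filters, TMM and quantile scaling, no diet term, library weights, edgeR, DESeq2 and the replicate block, and from 1599 to 2048 without each library in turn; by genotype label it was 1254. The interaction count of 1 became 2 with a pseudocount of 5 and 2 without the 3 libraries against their label (Eif3j2 added), 0 by genotype label (518 genes at an unadjusted p under 0.05) and 0 in edgeR, and it ran from 1 to 2 without each library. Within a diet the sign turned for Fam227b (-0.060, control), Oasl2 (-0.26, control), Foxj1 (0.11, ketogenic), Klf9 (-0.0087, ketogenic) and Pla2g4e (0.017, MCT); the cause was not tested. Of 133 named and called genes, 103 kept call and direction under every setting but the label and single diets, and 28 were no longer called once some single library was left out, among them Mapt, Pttg1, Cdh5, Flt1, Gsk3b, Acadl and Cox6c.

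Same-numbered libraries of the 2 genotypes did not deviate together (3 of 11 pairs had a correlation over 0.1, range -0.305 to 0.166), so the numbers do not pair them; with the replicate block 1576 genes were called, 1444 of them shared. Control-diet values rest on 2 high-Thy1 libraries, and genes with a few reads in 3xTg_K_2 (2653427 reads) are coarse there.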
